A study of Gallus gallus with 6 samples.

Results

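The ovaries numbered 1, one from a GYR hen (GYR_1) and one from a YS hen (YS_1), were set against the 4 ovaries numbered 2 and 3 of the same breeds. These are 2 of the 6 ovaries of the series. GYR hens are commercial hybrids from green-shell males with yellow feathers and hens bred from YS males and recessive white feather layers, and YS (Yaoshan) hens belong to a local breed, so GYR carries part of the YS genome. All hens came from the same hatch and the same diet, were killed at the same age in the laying period, and were selected at random among hens with average laying. Each library holds the RNA of 1 ovary from which the visible follicles had been taken off. The number is the replicate number in the sample titles, and neither the titles nor the study's methods say what it marks. This division was taken up because an earlier clustering of the same 6 libraries had placed GYR_1 and YS_1 apart from the others, so the differences between number 1 and numbers 2 and 3 are given as a description without a test.

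The ovary of a laying hen holds oocytes in follicles of very different sizes. Granulosa cells line each follicle and theca cells surround them, and both produce steroid hormones. What stays behind once visible follicles are removed is the cortex with its smallest follicles, stroma rich in extracellular matrix, smooth muscle, vessels and blood cells. In such bulk tissue, fewer cells of a type and less RNA per cell cannot be told apart. The extraction note of the sample records speaks of retina, whereas the tissue entry and the methods name the ovary. The files list genes by Ensembl identifier without symbols, and the RefSeq gene table used here matched 0 of the 21164 identifiers. Markers of ovarian cell types, pathways and gene roles are therefore not analysed here, and 4 genes are named by identifier alone.

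Expression was given as FPKM, the fragments of a gene scaled by transcript length and by the number of mapped fragments. For 14918 of the 21164 genes the mean FPKM over the 6 ovaries was at least 0.5. Differences were taken on the log2(FPKM + 1) scale, on which 1 stands for about a doubling in a well-expressed gene and for more than that in a gene with low FPKM. FPKM do not hold the depth of a library. The study lists clean reads per library, most in GYR_2 and fewest in YS_1, but they were not used here. Relative to YS_1, depth estimated from the steps between low FPKM was 1.08 in GYR_1, against 1.28 in GYR_2, 1.01 in GYR_3, 1.02 in YS_2 and 1.05 in YS_3. YS_1 thus had the lowest estimate, and GYR_1 was exceeded only by GYR_2. Whether depth plays a part in the differences was not tested. GYR_1 and YS_1 had 2361 and 2592 genes listed at an FPKM of 0, within the range of 2243 to 2800 in the other 4 ovaries. The 20 most abundant genes held 10.2% of the summed FPKM in GYR_1 and 9.67% in YS_1, against 9.9% in GYR_2, 11.6% in GYR_3, 12.4% in YS_2 and 15.1% in YS_3.

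Members were chosen by their measured values: a gene was counted as moving with the number when the number 1 ovary differed by at least 1 from the mean of numbers 2 and 3, in the same direction in GYR and in YS. This was the case for 240 genes. Of these, 94 were higher in the number 1 ovaries (0.63% of the 14918 genes) and 146 were lower (0.979%). The largest shared differences were those of ENSGALG00000047923 and ENSGALG00000054972, which were higher, and of ENSGALG00000028147 and ENSGALG00000030025, which were lower. Each was among the 2 genes of its direction with the largest value of the smaller of both breeds' differences. This choice largely fixes the size of their differences and the gap between the groups given below. Their standard errors describe the fit and are no test, and each SD pools ovaries of both breeds.

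ENSGALG00000047923 had an FPKM of 14.4 in GYR_1 and 16.2 in YS_1. In the other ovaries it had 3.24 in GYR_2, 0.90 in GYR_3, 1.70 in YS_2 and 0.67 in YS_3. Both number 1 ovaries lay far above all 4 others, and the mean was 15.3 ± 1.31 (SD, n = 2) in number 1 against 1.63 ± 1.16 (SD, n = 4) in numbers 2 and 3, a ratio of 9.40. With breed as a covariate, the difference was 2.73 on the log2(FPKM + 1) scale (standard error 0.38), with 2.44 in GYR and 3.02 in YS. It was the only member that was higher by at least 2 in both breeds.

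ENSGALG00000054972 was a gene of low level outside the number 1 ovaries. Its FPKM was 4.84 in GYR_1 and 4.09 in YS_1, against 0.55 in GYR_2, 0.52 in GYR_3, 0.42 in YS_2 and 0.07 in YS_3. The mean was 4.46 ± 0.53 (SD, n = 2) in number 1 and 0.39 ± 0.22 (SD, n = 4) in numbers 2 and 3, and the groups did not overlap. The difference was 1.99 (standard error 0.21), with 1.93 in GYR and 2.05 in YS. With a pseudocount of 0.1 in place of 1 the difference was 3.39, since values under 1 weigh little on the log2(FPKM + 1) scale.

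ENSGALG00000028147 was well expressed in all 6 ovaries. Its FPKM was 50.8 in GYR_1 and 47.7 in YS_1, against 255 in GYR_2, 336 in GYR_3, 242 in YS_2 and 474 in YS_3. Both number 1 ovaries were close to each other and below all others. The mean was 49.3 ± 2.22 (SD, n = 2) in number 1 and 327 ± 107 (SD, n = 4) in numbers 2 and 3. The difference was -2.65 (standard error 0.29), with -2.50 in GYR and -2.80 in YS.

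ENSGALG00000030025 varied most among the named genes. It had an FPKM of 39.6 in GYR_1 and 8.36 in YS_1. In the other ovaries it had 103 in GYR_2, 335 in GYR_3, 243 in YS_2 and 577 in YS_3. The groups again did not overlap, but GYR_1 was nearer to GYR_2 than YS_1 was to either YS ovary. The difference was -3.77 (standard error 0.79), with -2.20 in GYR and -5.33 in YS. Without YS_1 or without GYR_1 only the other breed's difference remains, -2.20 or -5.33, so its size rests on which number 1 ovary is kept.

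**Figure D1:**
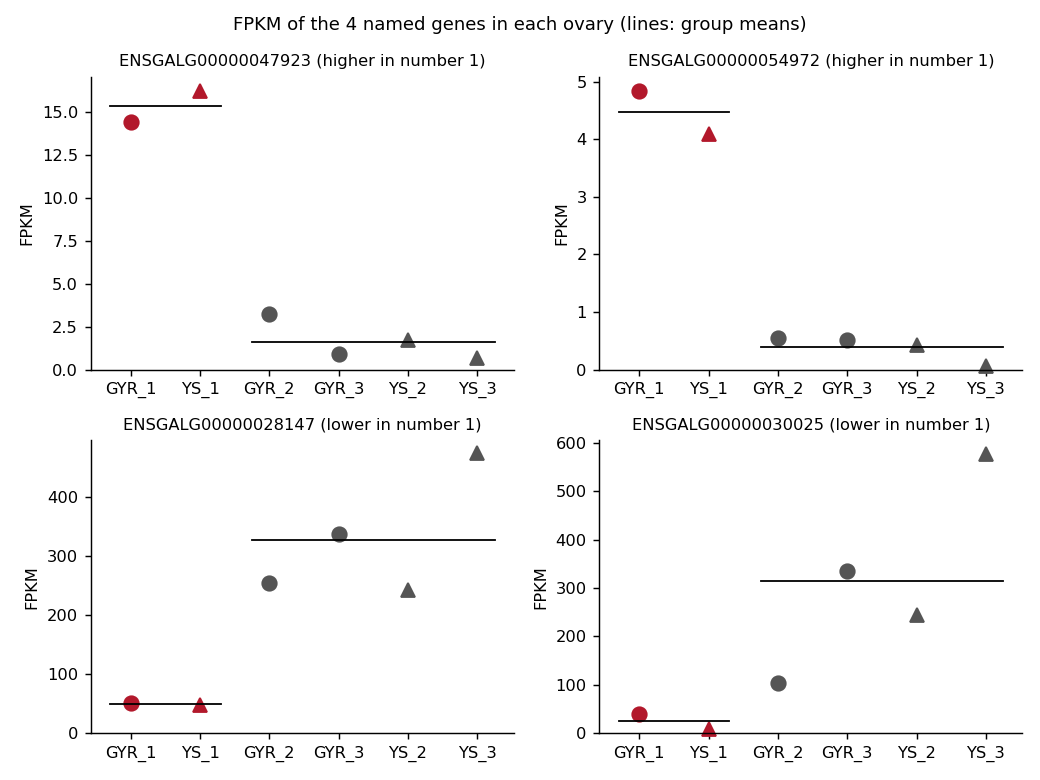
FPKM (vertical axes, linear, starting at 0) of the 4 named genes in each of the 6 ovaries (horizontal axes), with circles for GYR, triangles for YS, red for number 1, grey for numbers 2 and 3, and lines at group means. GYR_1 and YS_1 lie above all 4 other ovaries in the upper panels (14.4 and 16.2 for ENSGALG00000047923) and below them in the lower panels (50.8 and 47.7 for ENSGALG00000028147).

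The 94 higher members were genes of low level. Their median FPKM was 7.89 in GYR_1 and 6.42 in YS_1. In the other ovaries the median was 2.25 in GYR_2, 2.37 in GYR_3, 1.71 in YS_2 and 1.46 in YS_3. The middle values of the number 1 ovaries were thus above those of all 4 others, which is what the choice of members fixes. Together these genes held 0.208% of the FPKM of GYR_1 and 0.19% of YS_1, against 0.0681% of GYR_2, 0.0948% of GYR_3, 0.0586% of YS_2 and 0.049% of YS_3. Their highest mean over the 6 ovaries was an FPKM of 27.4, and 81 of the 94 (86.2%) had a mean under 10, compared with 47.3% of all 14918 genes. Both number 1 ovaries were above all 4 others in 88 of the 94 (17.6% of all genes), which the choice of members nearly fixes. The difference had a median of 1.24 in GYR and 1.46 in YS and reached 2.44 in GYR and 3.71 in YS. In 10 genes it was at least 1.5 in both breeds.

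The 146 lower members covered a wider range of levels. Their median FPKM was 5.02 in GYR_1 and 4.02 in YS_1. In the other ovaries it was 13.1 in GYR_2, 14.9 in GYR_3, 11.4 in YS_2 and 14.8 in YS_3. Of the 146, 72 (49.3%) had a mean FPKM under 10, close to the share among all genes tested, and 6 had a mean of at least 100. The median of these means was an FPKM of 10.6, against 11.2 for all genes tested. This likeness depends on the pseudocount: with 0.1 in place of 1, the median was 3.65 over 348 lower genes and 1.51 over 330 higher genes, against 3.86 for the 94 higher members. Both number 1 ovaries were below all 4 others in 141 of the 146 (15.5% of all genes), which the choice of members also nearly fixes. The difference had a median of -1.27 in GYR and -1.36 in YS and reached -3.53 in GYR and -5.33 in YS. In 16 genes it was -1.5 or lower in both breeds, and in 2 it was -2 or lower.

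**Figure D2:**
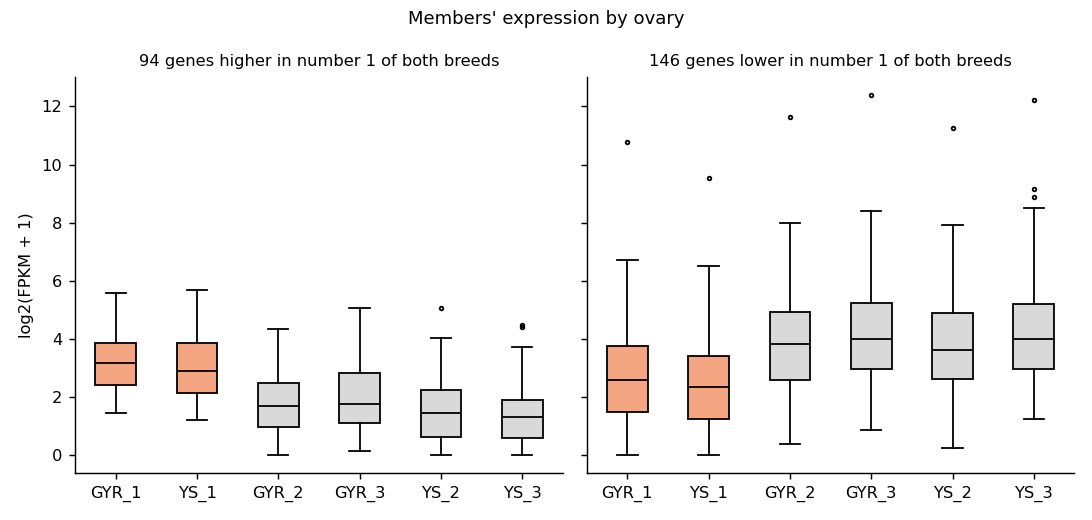
Distribution of log2(FPKM + 1) (vertical axis) in each ovary (horizontal axis) for the 94 higher and the 146 lower members, with boxes from the first to the third quartile, a line at the median, whiskers to 1.5 box lengths and dots beyond them; number 1 is orange and numbers 2 and 3 are grey. The medians of higher members correspond to FPKM of 7.89 in GYR_1 and 6.42 in YS_1 against 1.46 to 2.37 in the others, and those of lower members to 5.02 and 4.02 against 11.4 to 14.9.

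A single gene held much of the FPKM of the lower members. It had 1768 in GYR_1 and 747 in YS_1, against 3160 in GYR_2, 5365 in GYR_3, 2446 in YS_2 and 4734 in YS_3. This came to 41.1% to 56.4% of the summed FPKM of the lower members in each ovary. The sum of all 146 was 3137 in GYR_1 and 1817 in YS_1, against 6595 in GYR_2, 9837 in GYR_3, 5950 in YS_2 and 10136 in YS_3. Without that gene the sums were 1368 in GYR_1 and 1071 in YS_1, against 3435 in GYR_2, 4472 in GYR_3, 3504 in YS_2 and 5402 in YS_3. The number 1 ovaries had the lowest sums with and without it, which the choice of members nearly fixes.

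Some genes were close to the threshold. Of the higher members, 36 were within 0.1 of it, and 56 genes fell short of it by no more than 0.1. The higher member nearest to it had differences of 1.25 in GYR and 1.00 in YS. The first gene outside had 0.9998 in GYR and 3.12 in YS. Of the lower members, 55 were within 0.1 of the threshold, and 64 genes fell short by no more than 0.1. The nearest lower member had -1.001 in GYR and -2.02 in YS, and the first gene outside had -0.9992 and -1.54.

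GYR_1 and YS_1 come from different hens and are compared with different hens, so the difference in one breed can be set beside that in the other. In GYR_1, 312 genes were higher by at least 1 than the mean of GYR_2 and GYR_3 (2.09%) and 519 were lower (3.48%). In YS_1, 1017 genes were higher than the mean of YS_2 and YS_3 (6.82%) and 695 were lower (4.66%). YS_1 thus differed more from the mean of YS_2 and YS_3 than GYR_1 did from that of GYR_2 and GYR_3. The spread of the difference over genes was 0.68 (SD) in YS and 0.51 in GYR. It does not tell which of the YS ovaries it comes from.

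Of the 312 genes higher in GYR_1, 94 (30.1%) were also higher by at least 1 in YS_1, against 6.82% of all genes, and 26 (8.33%) were lower there by at least 1, against 4.66%. Of the 519 genes lower in GYR_1, 146 (28.1%) were lower in YS_1 and 18 (3.47%) were higher. Taking any size of difference in YS, 227 of the 312 (72.8%) lay above 0, against 53.2% of all genes, and 430 of the 519 (82.9%) lay below 0, against 46.8%. Seen from the YS side, 94 of the 1017 genes higher in YS_1 (9.24%) were higher in GYR_1, against 2.09% of all genes, and 18 (1.77%) were lower, against 3.48%. Of the 695 genes lower in YS_1, 146 (21.0%) were lower in GYR_1, against 3.48%, and 26 (3.74%) were higher, against 2.09%. The shares in the same direction were above those of all genes, as were, by less, the opposite shares of the genes higher in GYR_1 and of those lower in YS_1, while most genes past the threshold in one breed were not past it in the other. The breeds were not kept apart when the division was taken up, since all 6 libraries were in the clustering behind it. That clustering had placed GYR_1 and YS_1 apart from the others, so the excess in the same direction restates it in part. The 94 and 146 shared genes are the members themselves, and the shares are a description, not a test.

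**Figure D3:**
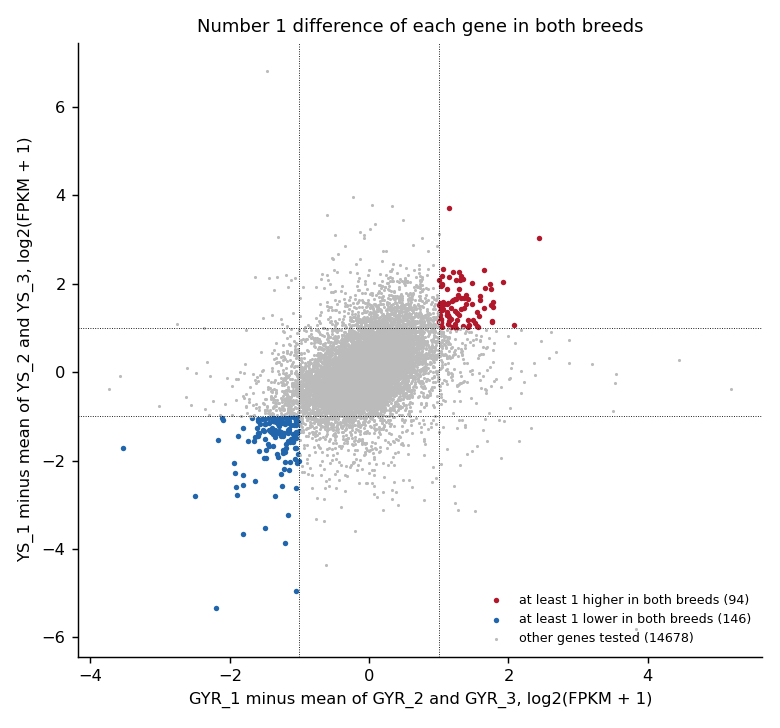
Number 1 minus the mean of numbers 2 and 3 on the log2(FPKM + 1) scale for 14918 genes, in GYR (horizontal axis) and YS (vertical axis), with dotted lines at the thresholds of 1 and -1. The 94 higher members (red) and the 146 lower members (blue) lie in 2 opposite corners, and the cloud is wider along the YS axis (SD over genes 0.68) than along the GYR axis (0.51).

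Whether the number 1 difference itself differed between the breeds was tested for all 14918 genes with limma, as the interaction of breed and number. This fit has 2 residual degrees of freedom. An adjusted p-value under 0.05 (Benjamini-Hochberg) was found for 0 genes, and an unadjusted one for 1065 genes (7.14%). With robust variance estimation the numbers were also 0 and 1065. Of the 1065 genes of the main fit, the difference in GYR was above that in YS in 354 (2.37% of all genes) and below it in 711 (4.77%). Without GYR_2 or without GYR_3 the number of genes with an adjusted p-value under 0.05 was 48 or 74. GYR is then 1 ovary against 1, and YS_2 against YS_3 alone gives the residual spread, with GYR assumed to vary alike. Members were chosen for the same direction in both breeds and are not read against this test.

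The sums of squares of log2(FPKM + 1) over all 14918 genes describe how the ovaries spread. Number 1 against numbers 2 and 3 where the breeds moved together held 34.9% of it. The contrast of GYR with YS held 25.6%, and the unequal number 1 difference of the breeds held 15.2%. Number 3 against number 2 held 17.1% where the breeds moved together and 7.33% where they moved apart. The first of these shares restates the clustering behind the division and is not read against the others.

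The choice of members used number 1 against the mean of numbers 2 and 3. A gene high in number 3 alone, or in number 2 alone, can pass by that mean. The order of numbers 2 and 3 is therefore not independent of the choice. Among the 146 lower members, number 3 was above number 2 in 101 genes in GYR (69.2%, against 49.1% of all genes) and in 113 genes in YS (77.4%, against 43.1%). It was above in both breeds in 81 genes (55.5%), against 28.6% of all 14918 genes, and below in both breeds in 13 (8.9%), against 36.3%. The median of number 3 minus number 2 was 0.22 in GYR and 0.32 in YS, against -0.01 and -0.07 over all genes. ENSGALG00000028147 and ENSGALG00000030025 both had this order, with the higher FPKM in number 3 of each breed. The lower members were thus higher in number 3 than in number 2 of both breeds more often than the genes at large. How far the choice of members brought this about was not tested.

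The higher members leaned to number 3 over number 2 in GYR but not in YS. Number 3 was above number 2 in 64 of the 94 genes in GYR (68.1%, against 49.1% of all genes). In YS it was above in 39 (41.5%, against 43.1%). It was above in both breeds in 25 (26.6%), against 28.6% of all genes, and below in both in 16 (17.0%), against 36.3%. The median of number 3 minus number 2 was 0.20 in GYR and -0.10 in YS, against -0.01 and -0.07 over all genes. The choice of members bears on this order too.

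The number 1 difference also went with the level of a gene over the whole transcriptome, in small steps. The 14918 genes were divided by mean FPKM into 10 bins of like size, from bin 1 with the lowest to bin 10 with the highest means. In bin 4, with a mean FPKM of 4.69 to 7.49, the median difference was -0.13 in GYR and -0.13 in YS. In bin 10, from an FPKM of 60.9, it was 0.15 in GYR and 0.21 in YS. In bin 1, up to an FPKM of 1.16, it was 0.03 in GYR and 0.11 in YS. Over all genes the median was 0.03 in GYR and 0.05 in YS. In 9 of the bins GYR and YS had the same sign, the exception being bin 2 (-0.02 in GYR and 0.09 in YS).

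As deviations from the mean of their breed, GYR_1 and YS_1 had medians of -0.09 and -0.09 in bin 4, against 0.05 and 0.06 in GYR_2 and GYR_3 and 0.04 and 0.04 in YS_2 and YS_3. In bin 9 they had 0.09 and 0.11. There GYR_2 and YS_2 had 0.00 and 0.02, and GYR_3 and YS_3 had -0.07 and -0.13. With FPKM as deposited, same-numbered ovaries of the breeds had deviations of the same sign in each bin from 3 to 10, for all 3 numbers. After median-of-ratios scaling, the direction of the difference changed in 1 of 20 values, that of YS in bin 7 (-0.02 in place of 0.05).

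**Figure D4:**
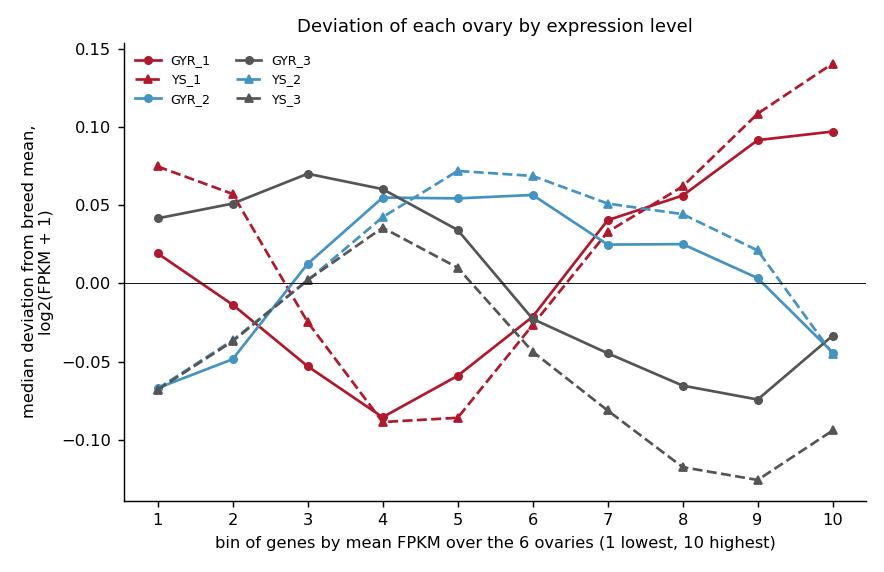
Median deviation of each ovary from the mean of its breed on the log2(FPKM + 1) scale (vertical axis) by bin of genes from the lowest (1) to the highest (10) mean FPKM (horizontal axis), with solid lines and circles for GYR, dashed lines and triangles for YS, and red, blue and grey for numbers 1, 2 and 3. GYR_1 and YS_1 dip to -0.09 in bin 4 and lie at 0.10 and 0.14 in bin 10.

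The identifier number, which the rule did not use, set the higher members apart from the genes at large more than it did the lower ones. Ensembl gives genes added to its annotation later higher numbers. Identifiers with a number above 30000, a value chosen after the numbers had been seen, made up 40.7% of all genes tested. Among the higher members they made up 68 of 94 (72.3%), and among the lower members 51 of 146 (34.9%). Genes of low level carry such identifiers more often in any case. In the band from 2 to 10 mean FPKM, 42 of 53 higher members (79.2%) and 21 of 63 lower members (33.3%) had one, against 41.7% of all genes in it. From 0.5 to 2 it was 21 of 28 higher members (75%), against 61.9% of the band, and from 10 to 50 it was 5 of 13 (38.5%), against 32.9%. The excess among higher members was thus largest from 2 to 10, and the band from 50 on held 0 of them. Lower members were below their band from 2 to 10 and from 50 on, where 3 of 12 (25%) had such an identifier, against 35.0% of the band. They had such an identifier in 6 of 9 genes (66.7%) from 0.5 to 2 and in 21 of 62 (33.9%) from 10 to 50. With a pseudocount of 0.1 the share was 72.1% of 330 higher and 42.0% of 348 lower genes, so for lower genes it was then not under that of all genes. These 330 genes had a median mean FPKM of 1.51, and their share was not compared within bands. No biotype was available for these identifiers.

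**Figure D5:**
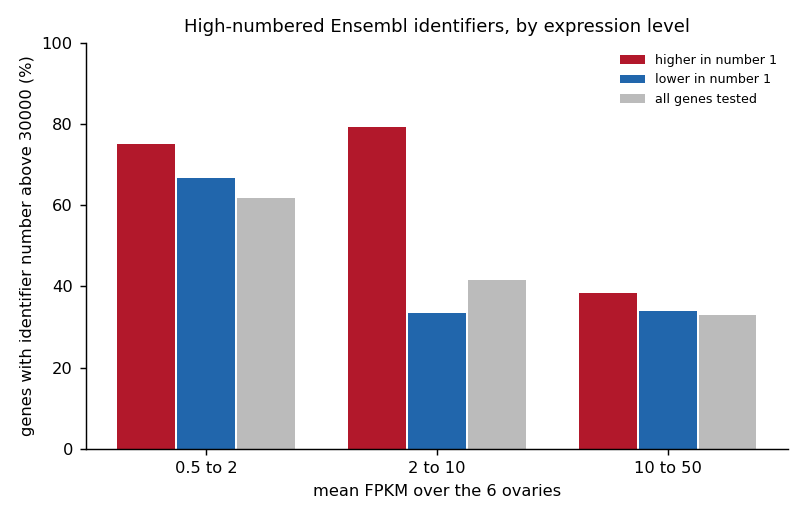
Share of genes with an identifier number above 30000 in percent (vertical axis, from 0) for higher members (red), lower members (blue) and all genes tested (grey) in bands of mean FPKM over the 6 ovaries (horizontal axis). In the band from 2 to 10 the bars stand at 79.2%, 33.3% and 41.7%.

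Some genes were listed at 0 on one side only. Over all 21164 genes, 54 were at 0 in all 4 ovaries numbered 2 and 3 and above 0 in GYR_1 and YS_1, with no FPKM above 1.21, and none of them reached the mean FPKM of 0.5. The reverse, 0 in GYR_1 and YS_1 and above 0 in all 4 others, was found for 79 genes, with FPKM up to 3.67. Of these, 4 reached the mean of 0.5 and 1 was a lower member. An FPKM of 0 was not read as absence.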

How the data were processed

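Ovarian RNA of 3 GYR and 3 YS hens was sequenced, 1 library per hen. The authors trimmed reads with fastp, aligned them with HISAT2 to a genome the methods name GRCg7b, and deposited FPKM per gene with 2 decimals. The submitters' processing notes instead name fastp, Bowtie2 2.0.0.5, TopHat2 2.0.0, StringTie 2.2.0 and GRCg6a, and which of these made the files is not settled here. In all libraries but YS_1, 3458 rows without an identifier, with equal values in each, held 1.85% to 2.03% of the FPKM and were left out.

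Genes averaging an FPKM of 0.5 or more were analysed as log2(FPKM + 1). Number 1 was compared with numbers 2 and 3 with limma 3.58.1 in R 4.3.3 (lmFit, eBayes with trend, breed as covariate), and the breeds' number 1 differences with an interaction term, with two-sided p-values and Benjamini-Hochberg adjustment. FPKM are not read counts, so no count model was used. The fits were also run on simulated data with noise drawn independently for each gene and ovary, and no result here rests on that outcome. Summaries were made with Python 3.11.15, numpy 2.4.6 and pandas 2.3.3. Relative depth was the most frequent ratio to YS_1 among genes with FPKM of 0.2 to 3. Named genes were the 2 higher and 2 lower with the largest value of the smaller difference, as no symbols could be paired. The division, members and lists were chosen with earlier results of these data known. Marker lists written in advance by symbol were not run. Each pair of libraries differed in at least 19071 genes, so each was counted once. That each number stands for a separate hen comes from the methods.

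Alternatives were another pseudocount, other filters, other scalings, other thresholds, robust variance estimation and leaving out each ovary. Those leaving out a number 1 ovary, and the members restricted to no overlap, were chosen after seeing the data.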

Additional observations from a re-analysis of the deposited data

How the results depend on the processing

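The main numbers were 94 higher and 146 lower genes, and 788 genes with a difference of at least 1 in the fit with breed as covariate. The limma interaction of breed and number, with 2 residual degrees of freedom, gave 0 genes with an adjusted p-value under 0.05. This does not show that the differences of the breeds were equal. With a pseudocount of 0.1 the first 3 counts were 330, 348 and 1899. All 94 and 146 genes were among them, which a smaller pseudocount nearly fixes. At a difference of 0.58 there were 565 higher and 735 lower genes, at 2 there were 1 and 2, and measured from the nearer of numbers 2 and 3 there were 34 and 62. Leaving out 1 ovary numbered 2 or 3 gave 81 to 138 higher and 116 to 199 lower genes. These were in part other genes. Of the 94 higher members, 62 remained without GYR_2, 80 without GYR_3, 86 without YS_2 and 72 without YS_3. Of the 146 lower members, 128, 109, 140 and 103 remained in the same order. Without GYR_1 the fit gave 1712 genes and without YS_1 it gave 831, but only the other breed's difference then remains. These are the genes differing by at least 1 in YS_1 or in GYR_1 counted above, not a shared difference. The interaction cannot be fitted without a number 1 ovary. With 1 ovary numbered 2 or 3 left out, the fit gave 609 to 979 genes. Genes with different differences in the breeds then numbered 0 to 74, with 48 without GYR_2 and 74 without GYR_3, where 1 ovary stands for its group. Among members, 39.2% were higher, but 53.7% were without GYR_3 and 28.9% without GYR_2. The cause was not tested. No filter, a mean FPKM of at least 1, and median-of-ratios or upper-quartile scaling kept each of the main counts within 1.5 times. Dropping the filter could not add a lower gene, since a difference of -1 in both breeds needs a mean FPKM above 0.5. Robust variance estimation bears on the limma interaction alone, which again gave 0 genes with an adjusted p-value under 0.05. Without the filter, an unadjusted limma interaction p-value under 0.05 was found for 1698 of 20508 genes, in place of 1065 of 14918. No direction of a named gene was reversed, which the choice of these genes nearly fixes. The share of identifiers above 30000 among higher members was 68.8% to 72.3% over the scalings and pseudocounts, and among lower members 33.8% to 42.0%, against 40.7% of all genes. These shares were not matched by level. With a pseudocount of 0.1 the higher genes had a median mean FPKM of 1.51. Of all genes from 0.5 to 2, 61.9% had such an identifier. No paired analysis was possible because the replicate number is itself what is compared. Genes with low FPKM are limited by a depth that FPKM do not show.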
